A study of Homo sapiens with 15 samples.

Results

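The TRIM (tripartite motif) genes were taken as the rows of the count file whose symbol is TRIM, a number and at most 1 letter. There were 72 such rows of 26485, and 45 of them had a mean of at least 1 CPM (read counts scaled to the library size) in at least 1 of the 5 groups. The remaining 27 stayed below 1 CPM in every group, and 2 of these, TRIM74 and TRIM77, had 0 counts in all 15 libraries. For tests, 51 rows passed a low-count filter and 21 did not.

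RNA-seq counts came from U937, a human myeloid leukemia line with monocytic features, and ML1, a human acute myeloid leukemia line. The groups were U937 with 10 nM prexasertib plus 350 nM LSN622666 (the combination), U937 with 10 nM prexasertib, U937 with diluent, ML1 with 10 nM prexasertib and ML1 with diluent. Each group held 3 libraries, treatment lasted 24 h, and every culture, the diluent ones included, also contained 5 µM Q-VD-OPh, a caspase inhibitor that blocks apoptotic proteolysis. Prexasertib inhibits the checkpoint kinase CHK1, LSN622666 is given by code name, LSN622666 was never given alone, and the combination was not tested in ML1. The design asks which mRNAs, candidate regulators of TNF among them, change between treatments. Both lines are established cultures, and nothing in the labels shows that replicates came from separate cultures, so p-values measure only the spread among these libraries, which may be technical.

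Most TRIM proteins carry a RING domain, which makes them ubiquitin ligases, followed by B-boxes, a coiled coil through which they dimerize, and a variable C-terminal part. The C-terminal part, often a PRY-SPRY domain, chooses the substrate. Several members are induced by type I interferon and act on viral capsids, on RNA and DNA sensors or on the signalling proteins behind them, and this arm of the family is active in myeloid cells. Other members silence chromatin, bind microtubules or act mainly in muscle, nerve or the early embryo.

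Interferon-responsive genes often carry an ISRE (interferon-stimulated response element), bound by proteins of the IRF (interferon regulatory factor) family. Its core was searched as GAAANNGAAA on both strands in 300-base RefSeq promoter windows of GRCh38.p14, which run from 250 bases before to 50 bases after each start site. The 12 members listed as interferon-inducible or antiviral are TRIM5, TRIM6, TRIM14, TRIM21, TRIM22, TRIM25, TRIM26, TRIM31, TRIM34, TRIM38, TRIM56 and TRIM69. Of the 11 with a promoter entry, 6 (54.5%) held the core in at least 1 window, against 4 of 45 other members with an entry (8.89%). Counted per promoter rather than per gene, the core stood in 13.3% of 75 member promoters and in 3.57% of all 35116 promoters. The stretches around the matches are shown because the antiviral members include the largest rises with prexasertib in ML1 among the members tested. Each is written 5′ to 3′ on the gene's strand, with the matched bases in capitals.
TRIM5: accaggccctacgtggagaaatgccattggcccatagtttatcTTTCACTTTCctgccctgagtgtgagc
TRIM14: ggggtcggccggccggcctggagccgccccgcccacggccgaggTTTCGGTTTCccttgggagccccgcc
TRIM21: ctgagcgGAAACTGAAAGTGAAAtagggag
TRIM26: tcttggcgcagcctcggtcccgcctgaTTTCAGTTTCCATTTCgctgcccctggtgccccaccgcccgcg
TRIM34: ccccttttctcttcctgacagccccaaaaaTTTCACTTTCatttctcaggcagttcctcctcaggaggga
TRIM69: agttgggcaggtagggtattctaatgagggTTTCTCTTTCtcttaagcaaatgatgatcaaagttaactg

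The stretch of TRIM5 is chr11:5685075-5685144 on the minus strand, that of TRIM14 is chr9:98119223-98119292 on the minus strand, and that of TRIM21 is chr11:4393663-4393692 on the minus strand. The stretch of TRIM26 is chr6:30213558-30213627 on the minus strand, that of TRIM34 is chr11:5624881-5624950 on the plus strand, and that of TRIM69 is chr15:44736436-44736505 on the plus strand. The core lay from -27 to -18 of the start site in TRIM5 and from -26 to -17 in TRIM14, while TRIM21 and TRIM26 each held 2 overlapping matches. The windows of TRIM6, TRIM25, TRIM31, TRIM38 and TRIM56 did not hold these letters, and TRIM22 had no entry. An AP-1 site, TGANTCA, stood in 14.7% of the 75 member promoters and in 7.71% of all promoters. The member promoters with it include those of TRIM48, TRIM49, TRIM49B and TRIM49C, which are closely related genes and not independent of each other. A CRE, TGACGTCA, stood in 1.33% of member promoters and in 1.85% of all. A match is a description of letters and was not tested for binding.

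Library totals ran from 49011222 to 87301014 counts, and correlations between replicates of 1 group were 0.9885 to 0.9984. Of 10 myeloid markers, 9 or 10 reached 1 CPM in each group, and their summed level was 1277 to 1508 CPM with the combination, 1123 to 1486 CPM with prexasertib and 1722 to 2161 CPM with diluent in U937. In ML1 that sum was 5496 to 7365 CPM with prexasertib, against 3835 to 4933 CPM with diluent. LYZ, the lysozyme gene of maturing myeloid cells, averaged 3627 CPM with prexasertib and 513.7 CPM with diluent in ML1. ITGAM, CSF1R and CD14 averaged 145.6, 82.25 and 5.304 CPM with prexasertib, against 32.14, 16.74 and 0.1862 CPM with diluent. The granule genes ELANE and MPO went the other way, at 1154 and 507.6 CPM with prexasertib, against 2647 and 947.8 CPM with diluent. These marker levels differed between the same ML1 groups as the TRIM genes described below, and their part in those results was not tested. The markers CD3E, CD3D and EPCAM had 0 counts throughout. Of 16 markers of other cell types, 3 or 4 reached 1 CPM. Their summed level was 223.5 to 305.1 CPM in ML1 prexasertib libraries, against 54.67 to 63.92 CPM in ML1 diluent libraries. Most of that sum was PECAM1, an adhesion molecule that myeloid cells also carry, at 246.5 CPM with prexasertib and 48.36 CPM with diluent. In bulk RNA, fewer cells of a type and less RNA per cell cannot be told apart.

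Levels are given as library-scaled CPM and changes as log2 fold change ± standard error. Calls used edgeR's quasi-likelihood F test over 17243 genes, with an adjusted p (Benjamini-Hochberg) under 0.05 as the threshold. In ML1, prexasertib raised 18 of 51 tested TRIM genes (35.3%), against 25.3% of all genes called higher, and lowered 6 (11.8%), against 23.5% of all genes called lower. In U937 it raised 14 (27.5%), against a background of 18.3%, and lowered 5 (9.80%), against 12.8%. Combination against prexasertib gave 6 higher (11.8%), against 11.9% of all genes, and 13 lower (25.5%), against 17.1%. Combination against diluent gave 4 higher (7.84%), against 6.88%, and 1 lower (1.96%), against 4.11%. The prexasertib effect was higher in U937 than in ML1 for 5 members (9.80%), against 12.4% of all genes, and lower for 12 (23.5%), against 12.3%. With diluent, 10 members were higher in U937 than in ML1 (19.6%), against 32.0% of all genes, and 21 were lower (41.2%), against 29.4%. The shares of members higher with the combination than with prexasertib or diluent were thus near the background. TRIM43B and TRIM50 passed the low-count filter only through the U937 prexasertib libraries, TRIM31 only through the ML1 prexasertib libraries and TRIM29 only through the combination libraries, so a high level there was a condition of their being tested. Leaving out those that passed through a compared group, prexasertib raised 12 of 49 members in U937 and 17 of 50 in ML1, and the combination lowered 11 of 48 relative to prexasertib.

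The median log2 fold change of the tested TRIM genes was 0.17 in U937 and 0.15 in ML1 under prexasertib, beside medians over all genes of at most 0.02. The summed level of all 72 genes was 4165 to 4749 CPM in ML1 prexasertib libraries, against 2696 to 2792 CPM in ML1 diluent libraries. In U937 that sum was 2201 to 2484 CPM with the combination, 2235 to 2743 CPM with prexasertib and 2107 to 2654 CPM with diluent, and these ranges overlapped.

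**Figure D1:**
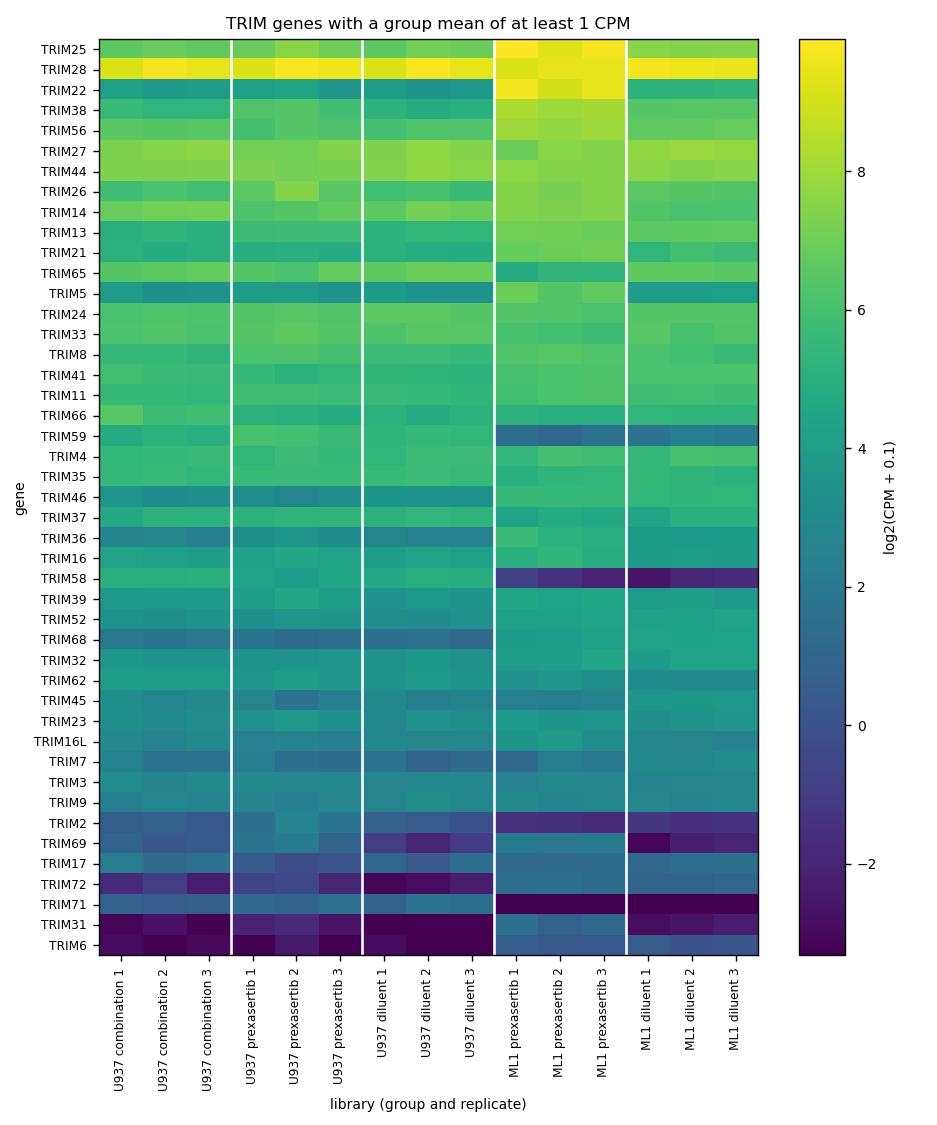
Level of the 45 TRIM genes with a group mean of at least 1 CPM (rows) in each of the 15 libraries (columns, by group and replicate), coloured by log2(CPM + 0.1). TRIM22, TRIM25 and TRIM5 were brightest in the 3 ML1 prexasertib libraries, TRIM58 and TRIM59 were brighter in every U937 library than in every ML1 library, and TRIM71 was at 0 in all ML1 libraries.

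Per length, TRIM28 was the most abundant member in every group, at 163.1 to 191.0 RPKM (CPM per kilobase of exon, group means). TRIM28, also called KAP1, is the corepressor that KRAB zinc-finger proteins recruit to silence transposons and genes. Next in ML1 prexasertib libraries came TRIM22 at 113.6 ± 24.67 RPKM, TRIM25 at 84.73 ± 17.21 RPKM and TRIM21 at 63.24 ± 6.134 RPKM (SD, n = 3). In the other 4 groups the second gene was TRIM65, TRIM26 or TRIM27, at 24.17 to 28.68 RPKM. The level of TRIM28 was 575, 826 and 711 CPM with the combination, 586, 883 and 751 CPM with prexasertib and 564, 870 and 674 CPM with diluent in U937. It was 590.0, 708 and 677 CPM with prexasertib, against 820.0, 770.0 and 722 CPM with diluent, in ML1. In the fit without a replicate block no comparison gave a call for TRIM28, and replicate 1 of each U937 group was the lowest of its group.

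The antiviral list was chosen with earlier results of these data known. Of its 11 members tested, prexasertib raised 10 in ML1, where 25.3% of all genes were called higher. The median log2 fold change over the 11 was 1.67. TRIM31 was tested only because of its level in the treated libraries, TRIM6 was the one not called, and each of the 10 was called in every alternative fit that tested it and without any 1 library. TRIM22, an interferon-induced ligase that restricts several viruses (chromosome 11, 5689689 to 5737089, plus strand, GRCh38), had 822, 527 and 702 CPM in ML1 prexasertib libraries, against 36.9, 36.9 and 40.9 CPM in ML1 diluent libraries. Every treated library lay far above every diluent library, and the change was 4.16 ± 0.21 (adjusted p = 6.1e-11), about 17.9-fold. In U937 the same gene had 17.4, 14.3 and 15.2 CPM with the combination, 17.8, 21.8 and 11.9 CPM with prexasertib and 15.3, 11.3 and 13.3 CPM with diluent. These U937 libraries overlapped and gave no call for prexasertib (0.37 ± 0.19, adjusted p = 0.15). Of the exon bases of TRIM22, 10.7% are shared with OR56B1, and the count file was made from a kit that does not mark strand.

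TRIM5 (chromosome 11, 5663557 to 5938619, minus strand) encodes the factor that binds incoming retroviral capsids. Its span in GENCODE takes in TRIM22 on the other strand, but no exon base is shared. TRIM5 had 122, 81.1 and 104 CPM in ML1 prexasertib libraries, against 17.2, 17.2 and 17.3 CPM in ML1 diluent libraries. The groups were widely apart, with a change of 2.57 ± 0.20 (adjusted p = 9e-09). U937 libraries had 15.3, 9.79 and 11 CPM with the combination, 15.3, 15.2 and 11.1 CPM with prexasertib and 14.7, 10.6 and 11 CPM with diluent. They overlapped, with a prexasertib effect of 0.19 ± 0.19 (adjusted p = 0.45).

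TRIM25 ubiquitinates the RNA sensor RIG-I, the product of DDX58, and so opens its signalling (chromosome 17, 56836387 to 56914080, minus strand). It had 959, 633 and 823 CPM in ML1 prexasertib libraries, against 187, 177 and 181 CPM in ML1 diluent libraries. The lowest treated library lay above the highest diluent library, and the change was 2.15 ± 0.19 (adjusted p = 5.4e-08). In U937, TRIM25 had 97.3, 115 and 102 CPM with the combination, 112, 188 and 126 CPM with prexasertib and 96.7, 136 and 124 CPM with diluent. Prexasertib replicate 2 was the high one, the other prexasertib libraries lay within the diluent range, and no call was made (0.25 ± 0.18, adjusted p = 0.30).

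TRIM38, which limits TNF and Toll-like receptor signalling (chromosome 6, 25962802 to 25991226, plus strand), was higher in both lines. It had 310.0, 245 and 278 CPM in ML1 prexasertib libraries, against 86.6, 88.1 and 88.0 CPM in ML1 diluent libraries, a change of 1.67 ± 0.14 (adjusted p = 3e-08). The U937 libraries had 50.2, 41.2 and 41.4 CPM with the combination, 77.3, 81.7 and 57.5 CPM with prexasertib and 36.8, 29.3 and 33.5 CPM with diluent. The 3 U937 groups did not overlap, with the combination between the others. The prexasertib effect in U937 was 1.12 ± 0.14 (adjusted p = 2.6e-05).

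TRIM69 restricts vesicular stomatitis virus (chromosome 15, 44728988 to 44767829, plus strand) and was near the detection limit with diluent. It had 4.40, 3.73 and 3.98 CPM in ML1 prexasertib libraries, against 0.017, 0.119 and 0.160 CPM in ML1 diluent libraries. All treated libraries were above all diluent libraries, and the change was 5.31 ± 0.51 (adjusted p = 1.6e-07). TRIM69 in U937 had 1.82, 1.08 and 1.25 CPM with the combination, 3.41, 4.31 and 1.73 CPM with prexasertib and 0.429, 0.162 and 0.406 CPM with diluent. Prexasertib replicate 3 was the low one of its group but still above every diluent library, and the change was 3.23 ± 0.45 (adjusted p = 7.2e-05).

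TRIM31, a ligase of the mitochondrial adaptor MAVS (chromosome 6, 30102897 to 30113106, minus strand), had 2.77, 1.63 and 2.23 CPM in ML1 prexasertib libraries, against 0.034, 0.0593 and 0.107 CPM in ML1 diluent libraries. Treated libraries were above diluent ones throughout, with a log2 fold change of 5.03 ± 0.64, for which no p is given because those libraries alone carried the gene past the filter. In U937 it had 10, 14 and 4 counts with prexasertib, against 0 counts in all 3 diluent libraries. Setting the diluent group at a floor of 3 counts over its libraries, the U937 level was at least 8.03-fold higher with prexasertib (adjusted p = 0.0035). Of its exon bases, 4.92% are shared with the antisense gene TRIM31-AS1.

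TRIM26, reported to act on the transcription factor IRF3 (chromosome 6, 30184455 to 30213427, minus strand), had 172, 153 and 174 CPM in ML1 prexasertib libraries, against 95.4, 86.8 and 79.9 CPM in ML1 diluent libraries (0.93 ± 0.19, adjusted p = 0.00054). U937 libraries had 58.4, 71.3 and 59.5 CPM with the combination, 94.5, 172 and 90.3 CPM with prexasertib and 59.0, 67.3 and 52.5 CPM with diluent. Prexasertib replicate 2 stood well above the others, and even the lowest prexasertib library exceeded the diluent and combination libraries. The U937 change was 1.00 ± 0.19 (adjusted p = 0.0011) and was called in every alternative and without any 1 library.

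TRIM14, an adaptor at MAVS that has no RING (chromosome 9, 98069275 to 98119212, minus strand), went opposite ways in the lines. It had 170.0, 157 and 166 CPM in ML1 prexasertib libraries, against 79.1, 68.1 and 70.8 CPM in ML1 diluent libraries (1.18 ± 0.15, adjusted p = 3e-06). With the U937 groups, TRIM14 had 114, 135 and 142 CPM with the combination, 74.3, 84.9 and 101 CPM with prexasertib and 93.5, 140.0 and 122 CPM with diluent. Prexasertib and diluent libraries overlapped in U937, and the call there (-0.45 ± 0.14, adjusted p = 0.026) was a marginal one. It was not called when U937 was fitted by itself (adjusted p = 0.063), nor without diluent replicate 2 (0.098) or 3 (0.051) or prexasertib replicate 1 (0.074) or 2 (0.066).

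TRIM21, the cytosolic antibody receptor also known as Ro52, averaged 122.0 ± 11.83 CPM in ML1 prexasertib libraries and 51.41 ± 9.214 CPM in ML1 diluent libraries (SD, n = 3), a change of 1.25 ± 0.14 (adjusted p = 8.3e-07). TRIM56, which acts on RNA viruses and on DNA-sensor signalling, averaged 240.1 ± 22.25 CPM with prexasertib and 107.2 ± 6.467 CPM with diluent in ML1, a change of 1.16 ± 0.12 (adjusted p = 3.2e-07). Neither was called in U937, where the prexasertib effects were -0.09 ± 0.14 and 0.05 ± 0.12. TRIM6, a ligase that makes unanchored ubiquitin chains, averaged 1.273 ± 0.1719 CPM with prexasertib and 1.112 ± 0.2298 CPM with diluent in ML1 and had no call. TRIM34 did not pass the filter, and 83% of its exon bases are shared with the readthrough gene TRIM6-TRIM34, which had 0 counts.

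**Figure D2:**
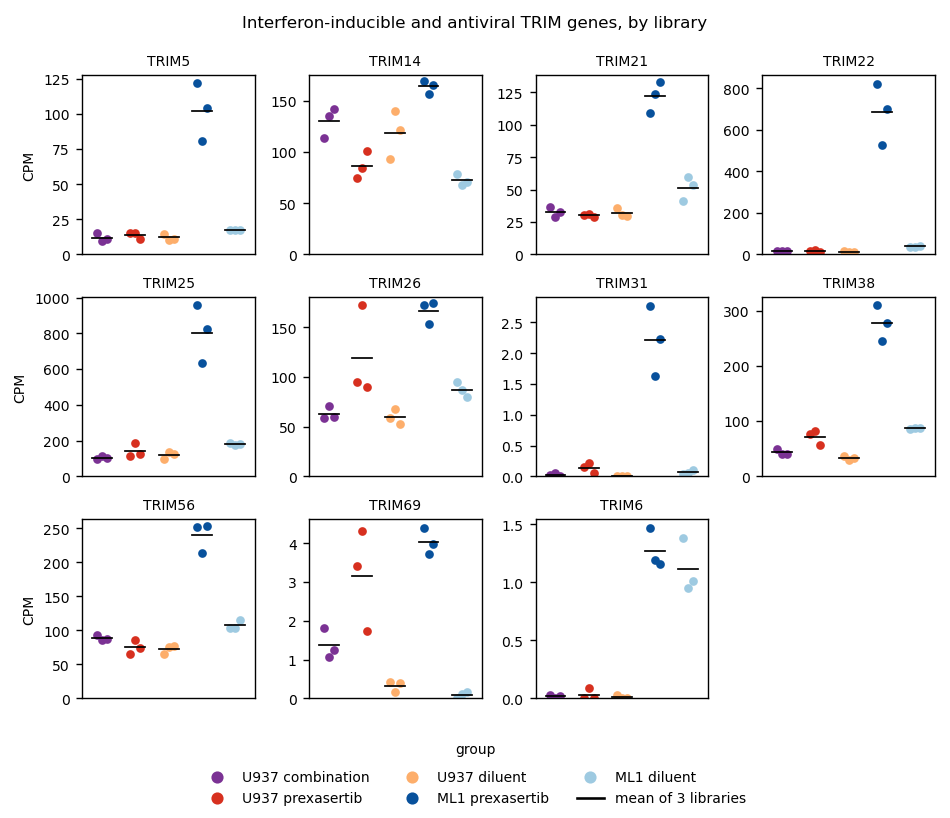
CPM (linear axes from 0, 1 panel per gene) of the 11 tested antiviral TRIM genes in every library, with a black line at each group mean of 3 libraries. In 10 panels the ML1 prexasertib points lie above the ML1 diluent points, and in TRIM38, TRIM26, TRIM31 and TRIM69 the U937 prexasertib points also lie above the U937 diluent points.

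In U937, prexasertib raised 4 of the 11 antiviral members, TRIM69, TRIM31, TRIM38 and TRIM26, and lowered TRIM14, with a median of 0.37. Of all genes, 18.3% were called higher there and 12.8% lower, so the number lower was near the background. Over the alternatives the number higher ran from 3 to 5, and without prexasertib replicate 2 the median was 0.10, with 4 higher and none lower. The difference between lines was itself tested: the prexasertib effect was smaller in U937 for 8 of the 11, with a median difference of -1.34. Over all genes it was called lower for 12.3%. Leaving out libraries or changing the fit gave 6 to 8. TRIM22 differed by -3.79 ± 0.27 (adjusted p = 2.6e-08), TRIM5 by -2.38 ± 0.27 (adjusted p = 4e-06), TRIM25 by -1.90 ± 0.26 (adjusted p = 3.2e-05), TRIM14 by -1.63 ± 0.20 (adjusted p = 1.3e-05) and TRIM21 by -1.34 ± 0.19 (adjusted p = 5.6e-05). TRIM56 differed by -1.12 ± 0.17 (adjusted p = 7.8e-05). The differences for TRIM69 (-2.08 ± 0.67, adjusted p = 0.030) and TRIM38 (-0.55 ± 0.19, adjusted p = 0.047) were near the threshold. TRIM69 lost its call without ML1 diluent replicate 1 (0.077) or 2 (0.051), ML1 prexasertib replicate 1 (0.053), U937 diluent replicate 1 (0.085) or 3 (0.068) or U937 prexasertib replicate 3 (0.054). TRIM38 lost its call with no low-count filter (0.053). It did so too without ML1 diluent replicate 1 (0.084), 2 (0.082) or 3 (0.082), ML1 prexasertib replicate 1 (0.11) or 3 (0.077), U937 diluent replicate 1 (0.096) or 3 (0.069), or U937 prexasertib replicate 3 (0.11). For TRIM26, higher in both lines, the difference was 0.07 ± 0.27 (adjusted p = 0.90).

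The sensors and transcription factors on either side of these ligases were read from a list of 14 antiviral signalling genes. That list too was chosen with earlier results of these data known. In ML1, prexasertib raised 11 of the 14, where 25.3% of all genes were called higher, and lowered none, with a median of 1.81. In U937 it raised 6, where 18.3% of all genes were called higher, and lowered 1, MAVS (-0.51 ± 0.17, adjusted p = 0.028), with a median of 0.40. Without U937 prexasertib replicate 2 the counts in U937 were 4 higher and 0 lower. IFNB1, the interferon-beta gene, averaged 14.92 ± 5.637 CPM in ML1 prexasertib libraries and 0.02374 ± 0.04111 CPM in ML1 diluent libraries, where all 6 counts fell in 1 library. In U937 it averaged 0.5028 ± 0.3204 CPM with prexasertib and 0.07425 ± 0.09404 CPM with diluent (2.79 ± 0.87, adjusted p = 0.024). The transcription factor genes STAT2 and IRF9 rose in ML1, STAT2 by 2.76 ± 0.18 (adjusted p = 1.6e-09) and IRF9 by 4.13 ± 0.32 (adjusted p = 3.4e-08). In U937, IRF9 rose by 1.83 ± 0.30 (adjusted p = 0.00047) and STAT2 by 0.46 ± 0.17 (adjusted p = 0.048). The RNA sensors DDX58 and IFIH1 rose by 4.54 ± 0.37 (adjusted p = 9.3e-08) and 5.25 ± 0.38 (adjusted p = 2.1e-08) in ML1. IFIH1 also rose in U937 (2.23 ± 0.33, adjusted p = 0.00023), but DDX58 was not called there (0.57 ± 0.33, adjusted p = 0.20). The U937 prexasertib libraries varied widely, averaging 147.7 ± 88.12 CPM for IFIH1 and 34.53 ± 21.16 CPM for IRF9 (SD, n = 3). With diluent, U937 averaged 31.37 ± 0.9691 CPM for IFIH1 and 9.721 ± 0.6568 CPM for IRF9.

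TRIM proteins known by other names gave 3 tested genes. PML, the nuclear-body protein TRIM19, averaged 461.6 ± 22.61 CPM in ML1 prexasertib libraries and 106.4 ± 8.388 CPM in ML1 diluent libraries, a change of 2.12 ± 0.13 (adjusted p = 8.6e-10), and was not called in U937 (0.10 ± 0.13, adjusted p = 0.59). MEFV, or pyrin, rose in ML1 by 2.47 ± 0.30 (adjusted p = 2.5e-06) and in U937 by 1.73 ± 0.33 (adjusted p = 0.0010). MID1, a microtubule-bound ligase, fell by 2.03 (± 0.51) in ML1 (adjusted p = 0.0031) and had no call in U937 (-0.40 ± 0.41). Of 9 ubiquitin-conjugating E2 enzymes that TRIM ligases can use, 4 fell in ML1, where 23.5% of all genes were called lower, and 3 fell in U937, where 12.8% were. None rose in either line. UBE2N, the E2 of lysine-63 chains, fell by 0.41 in U937 (adjusted p = 0.031) and by 0.67 in ML1 (adjusted p = 0.00059).

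**Figure D3:**
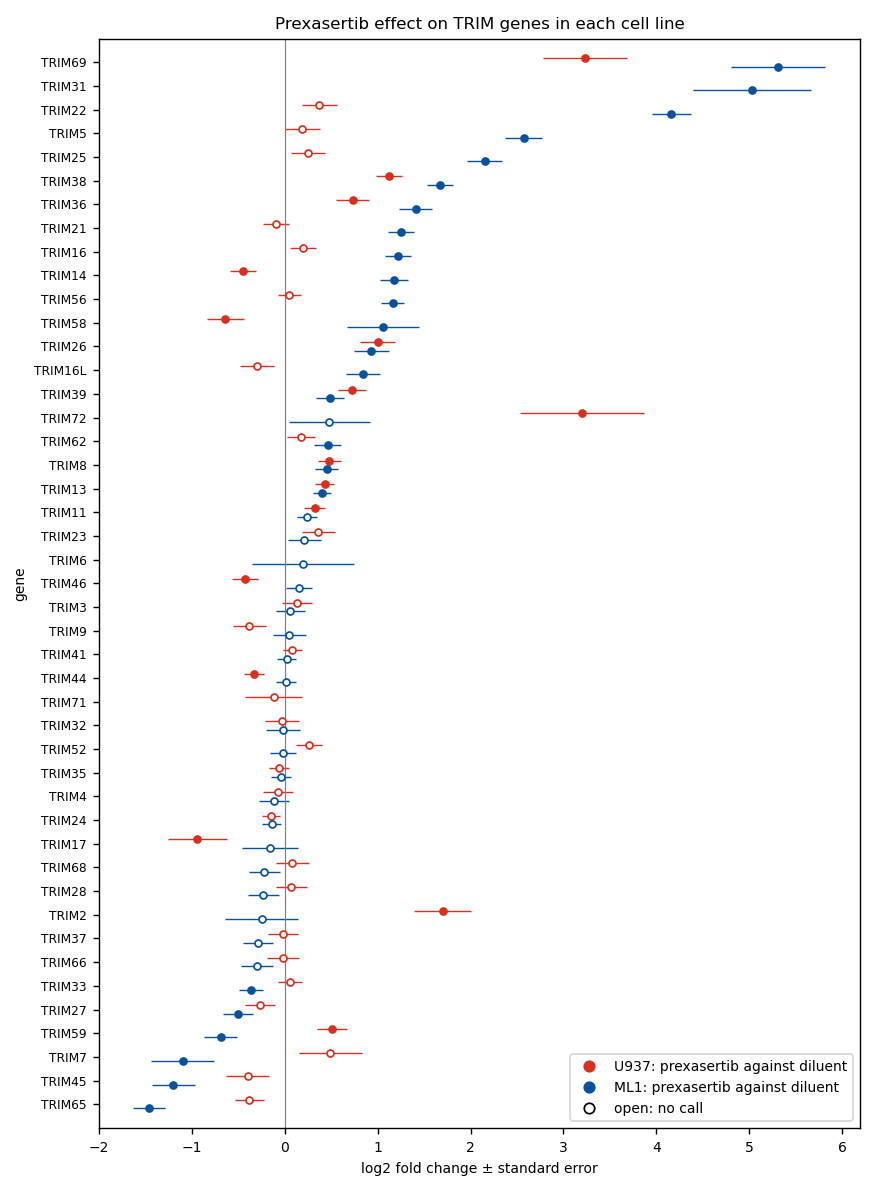
Log2 fold change ± standard error of prexasertib against diluent in U937 (red) and ML1 (blue) for TRIM genes with a group mean of at least 1 CPM, sorted by the ML1 value, with open points where no call was made. Genes with 3 or fewer counts in a compared group have no point there (TRIM31 and TRIM6 in U937, TRIM71 in ML1), and TRIM22, TRIM5 and TRIM25 show far larger changes in ML1 than in U937.

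Among 7 members tied to NF-kB and TNF signalling, prexasertib raised 3 and lowered 2 in ML1, and raised 3 and lowered 1 in U937. Over all genes 25.3% were called higher and 23.5% lower in ML1, and 18.3% higher and 12.8% lower in U937, so the numbers lower were near the background. TRIM8, which activates the kinase TAK1 downstream of the TNF receptor, averaged 44.18 ± 4.251 CPM with the combination, 70.76 ± 5.191 CPM with prexasertib and 50.8 ± 4.429 CPM with diluent in U937 (SD, n = 3). In ML1 it averaged 82.46 ± 6.783 CPM with prexasertib and 60.29 ± 7.994 CPM with diluent. Its rises, 0.48 ± 0.12 in U937 (adjusted p = 0.0077) and 0.45 ± 0.12 in ML1 (adjusted p = 0.0049), differed by 0.03 ± 0.17 between lines (adjusted p = 0.95), and the U937 call ended without diluent replicate 3 (0.065). TRIM13, a ligase of the endoplasmic reticulum membrane, had 32.5, 39.2 and 33.5 CPM with the combination, 53.8, 55.4 and 54 CPM with prexasertib and 37.1, 42.5 and 41.2 CPM with diluent in U937. It had 137, 130.0 and 122 CPM with prexasertib and 94.2, 99.5 and 101 CPM with diluent in ML1. The treated libraries were above the diluent ones in both lines, by 0.43 ± 0.10 in U937 (adjusted p = 0.0048) and by 0.40 ± 0.10 in ML1 (adjusted p = 0.0035). Of the exon bases of TRIM13, 17.7% are shared with DLEU2 and KCNRG.

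TRIM27, a RING ligase of the PRY-SPRY class, had 117, 185 and 175 CPM in ML1 prexasertib libraries, against 208, 241 and 225 CPM in ML1 diluent libraries. Replicate 1 of the treated group was the lowest, and the call (-0.50 ± 0.16, adjusted p = 0.013) ended without it (-0.32, 0.077) or without diluent replicate 2 (0.054). TRIM45, a filamin-domain member that restrains NF-kB, had 5.42, 5.06 and 6.18 CPM in ML1 prexasertib libraries, against 12.4, 12.7 and 13.2 CPM in ML1 diluent libraries. That separation was wide (-1.20 ± 0.23, adjusted p = 0.00036). TRIM44, which lacks a RING and stabilizes other proteins, had 155, 142 and 151 CPM in U937 prexasertib libraries, against 167, 206 and 190.0 CPM in U937 diluent libraries. Prexasertib libraries were all lower (-0.33 ± 0.11, adjusted p = 0.029), and the call ended without diluent replicate 2 (0.080) or prexasertib replicate 2 (0.076).

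Besides TRIM28, the bromodomain class holds TRIM24, a cofactor of nuclear receptors and ligase of p53, TRIM33, which acts on SMAD signalling, and TRIM66. TRIM33 was the member of this class called under prexasertib, in ML1. It had 66.1, 58.9 and 54.8 CPM there with prexasertib, against 87, 65.8 and 77.8 CPM with diluent, and the top treated library overlapped the lowest diluent library. Its change of -0.36 ± 0.13 (adjusted p = 0.027) ended without ML1 diluent replicate 1 (0.13) or 3 (0.065) or ML1 prexasertib replicate 2 (0.052) or 3 (0.10). The heterochromatin proteins through which TRIM28 silences fell in ML1, CBX5 by 1.85 ± 0.15 (adjusted p = 2.4e-08), CBX1 by 1.08 ± 0.13 (adjusted p = 1.5e-06) and CBX3 by 1.02 ± 0.13 (adjusted p = 3.4e-06). They are 3 of 5 listed TRIM28 partners, and 23.5% of all genes were called lower in ML1. The other listed partners, SETDB1 and its cofactor ATF7IP, were not called there. In U937, of the CBX genes, CBX1 was called (-0.36 ± 0.13, adjusted p = 0.039). SETDB1 rose in U937 by 0.35 ± 0.10 (adjusted p = 0.017) and ATF7IP by 1.44 ± 0.20 (adjusted p = 8e-05), where 18.3% of all genes were called higher.

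TRIM65 gave the largest fall among the TRIM genes tested in ML1. It encodes a ligase of the sensor MDA5, the product of IFIH1 (chromosome 17, 75880335 to 75897003, minus strand). It had 27.7, 39.0 and 38.3 CPM in ML1 prexasertib libraries, against 98.7, 97.1 and 93.0 CPM in ML1 diluent libraries. The groups were far apart (-1.46 ± 0.17, adjusted p = 1.3e-06). U937 libraries had 83.3, 95.3 and 108 CPM with the combination, 81.2, 69.7 and 111 CPM with prexasertib and 97.9, 122 and 121 CPM with diluent. These overlapped, with no call for prexasertib (-0.38 ± 0.16, adjusted p = 0.086), and the difference between lines was 1.08 ± 0.23 (adjusted p = 0.0022).

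TRIM59, a membrane-anchored member (chromosome 3, 160432445 to 160485773, minus strand), moved opposite ways. In U937 it had 28.4, 36.6 and 32.0 CPM with the combination, 67.3, 61 and 51 CPM with prexasertib and 38.6, 45.1 and 42.0 CPM with diluent. In ML1 it had 2.65, 2.24 and 2.93 CPM with prexasertib, against 3.14, 5.06 and 4.37 CPM with diluent. Prexasertib libraries were thus the highest in U937 and the lowest in ML1. The effects were 0.51 ± 0.16 in U937 (adjusted p = 0.024) and -0.69 ± 0.18 in ML1 (adjusted p = 0.0037), and their difference was 1.20 ± 0.24 (adjusted p = 0.0012). The U937 call ended without diluent replicate 1 (0.088) or 3 (0.078) or prexasertib replicate 1 (0.10) or 2 (0.080). Of the exon bases of TRIM59, 19.8% are shared with SMC4.

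TRIM2, an NHL-repeat ligase of neurofilament light chain (chromosome 4, 153152342 to 153339320, plus strand), had 1.42, 1.56 and 1.13 CPM with the combination, 2.85, 6.16 and 3.27 CPM with prexasertib and 1.54, 1.31 and 0.898 CPM with diluent in U937. The prexasertib libraries were all above the rest, with replicate 2 the highest. The change was 1.70 ± 0.31 (adjusted p = 0.00092). In ML1 it stayed below 1 CPM, at 0.274, 0.249 and 0.202 CPM with prexasertib and 0.340, 0.249 and 0.284 CPM with diluent, with no call. The difference of the effects was 1.95 ± 0.50 (adjusted p = 0.0076).

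TRIM36, a microtubule-associated member with a COS box, rose in both lines. It had 5.96, 6.29 and 4.93 CPM with the combination, 9.48, 11.9 and 8.13 CPM with prexasertib and 6.54, 5.49 and 5.71 CPM with diluent in U937 (0.73 ± 0.18 for prexasertib, adjusted p = 0.0062). In ML1 it had 47.3, 34.3 and 31.2 CPM with prexasertib and 14.6, 13.1 and 14.7 CPM with diluent (1.41 ± 0.18, adjusted p = 3.6e-06). In neither line did prexasertib and diluent libraries overlap. TRIM39, which stabilizes the BAX activator MOAP1, had 13.3, 13.9 and 13.6 CPM with the combination, 16.9, 23.2 and 16.9 CPM with prexasertib and 10.1, 13.2 and 11.3 CPM with diluent in U937. The U937 groups were ordered without overlap, with the prexasertib libraries highest (0.72 ± 0.15, adjusted p = 0.0020). In ML1 it changed by 0.49 ± 0.15 (adjusted p = 0.011), and this call was lost without ML1 diluent replicate 3 (0.051). For TRIM39, 41.7% of exon bases are shared with HCG18 and the readthrough TRIM39-RPP21, and how reads there were assigned was not tested.

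The 5 lower calls in U937 were TRIM14 and TRIM44, described above, and TRIM17, TRIM46 and TRIM58, and all 5 ended without prexasertib replicate 2. TRIM17, a ligase linked to neuronal apoptosis, had 4.56, 2.31 and 2.94 CPM with the combination, 1.25, 0.761 and 1.02 CPM with prexasertib and 2.02, 1.19 and 2.65 CPM with diluent. Prexasertib and diluent libraries overlapped (-0.94 ± 0.32, adjusted p = 0.032). TRIM58, an erythroid dynein regulator (chromosome 1, 247857199 to 247878205, plus strand), had 33.3, 31.9 and 33.5 CPM with the combination, 20.4, 15.4 and 21.6 CPM with prexasertib and 26.6, 32.4 and 30.3 CPM with diluent. The prexasertib libraries were all lower (-0.64 ± 0.20, adjusted p = 0.025). TRIM46, which organizes microtubules at the axon initial segment, had 11.9, 8.57 and 9.36 CPM with the combination, 8.74, 6.69 and 9.02 CPM with prexasertib and 11.4, 10.9 and 10.7 CPM with diluent (-0.43 ± 0.14, adjusted p = 0.028). Without prexasertib replicate 2 the adjusted p was 0.13 for TRIM17, 0.094 for TRIM58 and 0.11 for TRIM46. TRIM17 also lost its call without diluent replicate 1 (0.059) or 3 (0.13) or prexasertib replicate 3 (0.053), TRIM58 without diluent replicate 2 (0.064) or 3 (0.052), and TRIM46 without diluent replicate 1 (0.057). With U937 fitted by itself, TRIM17 (0.069) and TRIM46 (0.093) were not called either. TRIM58 was below 1 CPM in ML1, at 0.462, 0.266 and 0.147 CPM with prexasertib and 0.0679, 0.154 and 0.195 CPM with diluent. These overlapped, and the ML1 call (1.06 ± 0.39, adjusted p = 0.033) ended with ML1 fitted by itself (0.13) and without diluent replicate 1 (0.13) or 2 (0.062) or prexasertib replicate 1 (0.29). The difference between lines for TRIM58 was -1.70 ± 0.44 (adjusted p = 0.0087), and it was lost without ML1 prexasertib replicate 1 (0.064). Without prexasertib replicate 2, U937 gave 13 members higher and 0 lower, while all genes gave 1803 higher and 881 lower.

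In ML1 TRIM16, also named EBBP, which has no RING, averaged 33.93 ± 4.89 CPM with prexasertib and 14.55 ± 0.9546 CPM with diluent (1.22 ± 0.14, adjusted p = 1.8e-06). Its near-copy TRIM16L, whose transcript matches TRIM16 over 94.2% of its bases, averaged 11.32 ± 2.57 CPM with prexasertib and 6.34 ± 0.4853 CPM with diluent (0.84 ± 0.18, adjusted p = 0.00076). Reads can fall to either copy, so their separate values are uncertain. Neither gene was called in U937, and the lines differed by -1.02 ± 0.20 for TRIM16 (adjusted p = 0.0011) and by -1.14 ± 0.25 for TRIM16L (adjusted p = 0.0026). TRIM7, named for binding glycogenin, had 2.17, 4.83 and 3.99 CPM in ML1 prexasertib libraries, against 7.32, 7.39 and 8.88 CPM in ML1 diluent libraries. Treated libraries were all lower, with replicate 1 lowest (-1.10 ± 0.34, adjusted p = 0.011), and the call ended without that replicate (-0.83, 0.061). In U937, TRIM7 had 5.86, 3.10 and 2.99 CPM with the combination, 4.67, 2.75 and 2.47 CPM with prexasertib and 3.18, 1.66 and 2.16 CPM with diluent, and had no call for prexasertib. The difference between lines was 1.60 ± 0.48 (adjusted p = 0.020) and ended without U937 diluent replicate 2 (0.063) or 3 (0.056) or U937 prexasertib replicate 1 (0.072). TRIM62, a RING ligase with a PRY-SPRY domain, had 10.2, 11.7 and 9.41 CPM with prexasertib and 8.42, 7.39 and 7.02 CPM with diluent in ML1. It changed by 0.46 ± 0.15 in ML1 (adjusted p = 0.020), a call lost without diluent replicate 2 (0.065) or 3 (0.083) or prexasertib replicate 2 (0.11).

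Adding LSN622666 to prexasertib in U937 raised 6 tested TRIM genes (11.8%) and lowered 13 (25.5%) relative to prexasertib alone. Of all genes, 11.9% were called higher and 17.1% lower, so the number higher was near the background. Of the 13, TRIM43B and TRIM50 passed the low-count filter only through the prexasertib libraries. The comparisons of combination with prexasertib and of prexasertib with diluent use the same prexasertib libraries. A high or low prexasertib library thus moves them in opposite directions, and values of all 3 groups are given together. Same-numbered combination and prexasertib libraries deviated together. With the replicate number as a block the combination gave 6 higher and 15 lower, adding TRIM25 (-0.40, adjusted p = 0.013) and TRIM33 (-0.26, adjusted p = 0.039). Over all genes the block gave 3239 higher and 3830 lower, against 2048 and 2947 without it.

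Among the members at or above 1 CPM, TRIM2 fell by 1.58 with the combination relative to prexasertib (adjusted p = 0.0013) and TRIM26 by 0.92 (adjusted p = 0.0019). TRIM59 fell by 0.89 (adjusted p = 0.00076), TRIM36 by 0.78 (adjusted p = 0.0038), TRIM38 by 0.71 (adjusted p = 0.0012), TRIM8 by 0.68 (adjusted p = 0.00066) and TRIM13 by 0.63 (adjusted p = 0.00029). Each of these 7 was called in every alternative fit and without any 1 library. TRIM69 fell by 1.19 (adjusted p = 0.031), with the highest combination library at 1.82 CPM above the lowest prexasertib library at 1.73 CPM. Its call ended without prexasertib replicate 1 (0.066) or 2 (0.15) or combination replicate 2 (0.095) or 3 (0.099). TRIM39 fell by 0.48 (adjusted p = 0.022) and TRIM11, a PRY-SPRY ligase, by 0.32 (adjusted p = 0.036), and both calls ended without prexasertib replicate 2 (0.15 and 0.11). TRIM39 also lost its call with U937 fitted by itself (0.052) and without combination replicate 1 (0.064) or 3 (0.063), and TRIM11 with no low-count filter (0.063), with U937 fitted by itself (0.080) and without prexasertib replicate 1 (0.10) or combination replicate 1 (0.083), 2 (0.065) or 3 (0.12). TRIM11 had 45.7, 46.4 and 43.5 CPM with the combination, 58.3, 58.2 and 52.9 CPM with prexasertib and 49.7, 46.6 and 39.6 CPM with diluent. Its call against diluent (0.32 ± 0.11, adjusted p = 0.036) ended in the same 2 fits (0.066 and 0.052) and without diluent replicate 2 (0.10) or 3 (0.26) or prexasertib replicate 1 (0.14) or 2 (0.14). The number lower with the combination was 7 without prexasertib replicate 2 and also 7 without combination replicate 3. Over all genes that number was 1793 and 2032 in these fits, against 2947 with all libraries.

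Of the 6 members higher with the combination than with prexasertib, TRIM66 had a prexasertib effect of -0.02 ± 0.17 (adjusted p = 0.95). It is a bromodomain protein best known from the testis (chromosome 11, 8612037 to 8682694, minus strand) and had 89.4, 52.7 and 58.6 CPM with the combination, 36.5, 33.6 and 29.3 CPM with prexasertib and 35.7, 28.2 and 36.7 CPM with diluent. All combination libraries were above all others, with replicate 1 the highest. The change was 1.01 ± 0.17 against prexasertib (adjusted p = 0.00035) and 1.00 ± 0.17 against diluent (adjusted p = 0.0017), and both calls held in every alternative. TRIM41, a PRY-SPRY ligase that binds protein kinase C, had 60.7, 52.2 and 49.6 CPM with the combination, 44.1, 36.7 and 41.5 CPM with prexasertib and 39.8, 39.0 and 37.3 CPM with diluent. Combination libraries were again the highest, by 0.41 ± 0.10 against prexasertib (adjusted p = 0.0076) and 0.49 ± 0.10 against diluent (adjusted p = 0.0081). The call against diluent ended without diluent replicate 3 (0.059) or combination replicate 1 (0.077).

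TRIM17 rose with the combination by 1.69 ± 0.31 relative to prexasertib (adjusted p = 0.00087), TRIM58 by 0.78 ± 0.20 (adjusted p = 0.0084) and TRIM14 by 0.59 ± 0.14 (adjusted p = 0.0059), from the libraries given above. TRIM45 had 9.59, 6.71 and 7.69 CPM with the combination, 6.43, 3.00 and 4.97 CPM with prexasertib and 7.70, 5.08 and 6.22 CPM with diluent. Its rise of 0.74 ± 0.23 (adjusted p = 0.026) was not called when U937 was fitted by itself (0.053), nor without prexasertib replicate 2 (0.12) or combination replicate 1 (0.11) or 3 (0.054). Against diluent, the combination also raised TRIM69 (2.04 ± 0.44, adjusted p = 0.0081) and TRIM72 (2.35 ± 0.70, adjusted p = 0.041), and lowered TRIM24 (-0.34 ± 0.10, adjusted p = 0.037). TRIM24 had 68.1, 75.4 and 75.1 CPM with the combination, against 94.4, 95.4 and 86.3 CPM with diluent, and its call ended with no low-count filter (0.063), with U937 fitted by itself (0.099) and without any 1 combination library or diluent replicate 1 or 2 (0.061 to 0.11). The TRIM69 call ended without diluent replicate 2 (0.051), and that of TRIM72 with U937 fitted by itself (0.11) and without diluent replicate 1 (0.12) or 2 (0.13) or combination replicate 1 (0.080) or 2 (0.17).

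**Figure D4:**
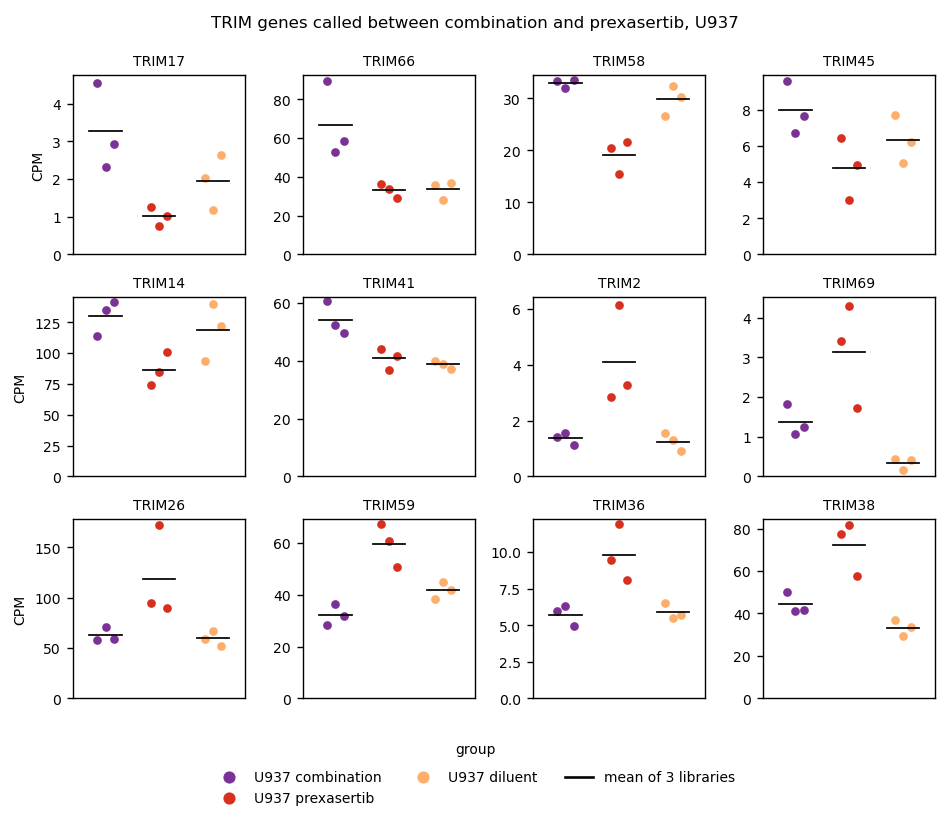
CPM (linear axes from 0) of 12 TRIM genes called between combination and prexasertib, in every U937 library of the combination, prexasertib and diluent groups, with a black line at each group mean. TRIM66 and TRIM41 were highest with the combination, while TRIM2, TRIM26, TRIM59, TRIM36 and TRIM38 were highest with prexasertib.

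With diluent alone, the 21 members lower in U937 than in ML1 (41.2%) stood beside 29.4% of all genes called lower, and the 10 higher (19.6%) beside 32.0% called higher. TRIM71, or LIN41, an NHL-repeat protein of stem cells and a target of let-7 (chromosome 3, 32818018 to 32897826, plus strand), had 121, 178 and 135 counts in U937 diluent libraries, against 0 counts in all ML1 libraries. Its level was at least 168-fold higher in U937, with ML1 set at the floor of 3 counts over the group. TRIM58 had 26.6, 32.4 and 30.3 CPM in U937 diluent libraries, against 0.0679, 0.154 and 0.195 CPM in ML1 diluent libraries (7.71 ± 0.31, adjusted p = 4.4e-13). TRIM59 was also far higher in U937 (3.32 ± 0.18, adjusted p = 2.5e-11), from the libraries given above. TRIM14 was higher by 0.70 ± 0.14 (adjusted p = 0.00038). TRIM62 had 10.7, 13.7 and 11.4 CPM in U937 diluent libraries, above the ML1 diluent libraries given above (0.65 ± 0.15, adjusted p = 0.0014). TRIM35, a ligase that binds the glycolytic enzyme PKM2, had 50.6, 52.8 and 50.0 CPM in U937 diluent libraries, against 44.2, 38.1 and 35.4 CPM in ML1 diluent libraries (0.38 ± 0.11, adjusted p = 0.0079). The groups did not overlap, but the TRIM35 call ended without ML1 diluent replicate 3 (0.051).

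Lower in U937 were 9 of the 11 tested antiviral members, beside 29.4% of all genes, TRIM14 and TRIM69 being higher. Over the alternatives 7 to 9 were lower, and the calls for TRIM5 (-0.51) and TRIM26 (-0.55) ended without ML1 diluent replicate 1 (0.051 and 0.062) or U937 diluent replicate 3 (0.094 and 0.074). TRIM5 also lost its call without ML1 diluent replicate 2 (0.052) or 3 (0.054) or U937 diluent replicate 2 (0.10), and TRIM69 lost its higher call without U937 diluent replicate 1 (0.059). TRIM22 (-1.52 ± 0.19, adjusted p = 2.1e-06) and TRIM38 (-1.40 ± 0.14, adjusted p = 1e-07) kept their calls in every alternative. TRIM6 had 2 counts in all U937 diluent libraries together, against 218 in ML1 diluent libraries, a ratio of 0.0106 with an exact 95% counting interval of 0.00128 to 0.0388. The interval and the floors of 3 counts take each count as 1 fragment. Of the counts from 1 to 20 over all genes of the file, 59.5% were even numbers, and 72.5% were among the TRIM43 to TRIM64 genes. How mates were counted is not given in the sources used here, and if mates were counted singly, the interval is too narrow and the bounds are too high. TRIM68, an androgen receptor coactivator, had 2.86, 3.10 and 2.29 CPM in U937 diluent libraries, against 19.3, 18.6 and 19.4 CPM in ML1 diluent libraries (-2.79 ± 0.18, adjusted p = 3e-10). TRIM46 (-1.91 ± 0.14, adjusted p = 2.2e-09) and TRIM7 (-1.75 ± 0.34, adjusted p = 0.00026) were also lower. TRIM13 was lower too (-1.29 ± 0.10, adjusted p = 5.9e-09). TRIM72, or MG53, a membrane-repair protein of muscle, had 0.0143, 0.0360 and 0.107 CPM in U937 diluent libraries, against 1.85, 1.85 and 1.97 CPM in ML1 diluent libraries (-5.25 ± 0.64, adjusted p = 1.3e-06). In U937 it was called higher with prexasertib (3.20 ± 0.67, adjusted p = 0.0023), at 0.530, 0.669 and 0.166 CPM.

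By location, the 6p cluster of 8 genes beside the major histocompatibility region had 5 tested members. TRIM26, TRIM31, TRIM38 and TRIM39 rose with prexasertib in both lines, and each was lower with the combination than with prexasertib in U937. TRIM31 was tested only because of its level in the ML1 prexasertib libraries, so its rise in ML1 was a condition of the test. Of all genes, 25.3% were called higher with prexasertib in ML1 and 18.3% in U937, and 17.1% were called lower with the combination. TRIM26, TRIM31 and TRIM38 are also in the antiviral list, so they are not a separate set. The combination calls of TRIM31 and TRIM39 and the ML1 call of TRIM39 ended in some alternatives. The other tested member of the 6p cluster, TRIM27, fell in ML1 and had no call in U937 (-0.27 ± 0.16, adjusted p = 0.20). The 11p15 cluster of 8 genes had 7 tested members. TRIM5, TRIM21 and TRIM22, which are antiviral members too, rose in ML1, and none of the 7 was called under prexasertib in U937. The neighbouring TRIM3 was not called in ML1 (0.06 ± 0.16, adjusted p = 0.79).

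TRIM43, TRIM43B, TRIM48, TRIM49, TRIM49B, TRIM49C, TRIM51, TRIM64, TRIM64B, TRIM64C and TRIM77 are closely related members, some of them near-identical copies, and TRIM43, TRIM48 and TRIM49 are known targets of the embryonic factor DUX4. This grouping was made after the values were seen and carries no test. The 11 genes together had 0, 52 and 0 counts with the combination, 52, 404 and 72 counts with prexasertib and 0 counts in all 3 diluent libraries in U937. In ML1 they had 4, 1 and 2 counts with prexasertib, against 0 counts in all 3 diluent libraries. Counts thus appeared in all 3 U937 prexasertib libraries, with most of them in replicate 2, and in 1 of the 3 combination libraries, replicate 2.

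TRIM43B was the member of the subfamily that passed the filter, with 16, 78 and 24 counts in U937 prexasertib libraries, against 0 in the diluent libraries. It did so only through those prexasertib libraries, so no p is given. Its level was at least 33.9-fold higher with prexasertib than with diluent, and with the combination it had 0, 8 and 0 counts. Of the others, TRIM64B had 95 counts over the U937 prexasertib group, TRIM43 had 84, TRIM48 had 72 and TRIM49B had 63, and all had 0 with diluent. Transcripts of TRIM43 and TRIM43B match over 99.4% of the shorter one, those of TRIM64 and TRIM64B over 99.6%, and those of TRIM49 and TRIM49C over 99.6%, so how reads were split among the copies is uncertain.

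**Figure D5:**
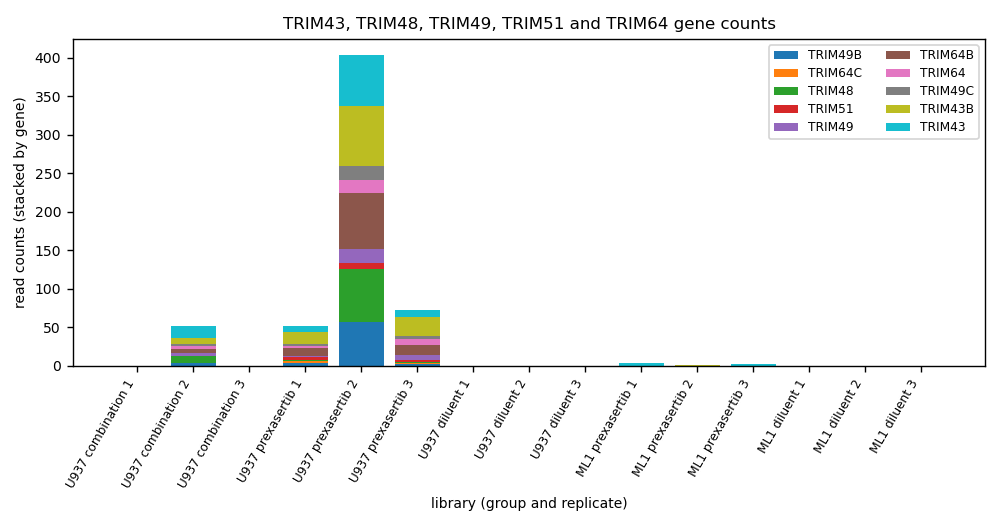
Read counts of TRIM43, TRIM48, TRIM49, TRIM51 and TRIM64 genes, stacked by gene, in each of the 15 libraries. The U937 prexasertib libraries hold 52, 404 and 72 counts, combination replicate 2 holds 52, and all diluent libraries hold 0.

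Other near-silent members also appeared with prexasertib in U937. A gain in detected genes was not particular to the TRIM family there. Counts were found for 20220, 21023 and 19742 genes of the file in the U937 prexasertib libraries, against 18435, 17782 and 17874 with diluent. Replicate 2 again held the most. TRIM50, a member from the Williams-Beuren region of chromosome 7, had 44, 55 and 34 counts with prexasertib, against 4, 0 and 1 counts with diluent, a log2 fold change of 4.46 ± 0.86. With the combination it had 22, 4 and 12 counts, a log2 fold change of -1.92 ± 0.67 against prexasertib. The prexasertib libraries were the highest and alone carried the gene past the filter, so no p is given. The combination call for TRIM31 (-2.53 ± 0.79, adjusted p = 0.026, with 1, 4 and 0 counts in combination libraries) ended without prexasertib replicate 2 (0.11) or combination replicate 1 (0.077) or 3 (0.097). Among untested rows, the muscle ligase TRIM63 had 5, 18 and 0 counts with prexasertib, its relative TRIM55 had 12, 10 and 6, and TRIM15 had 7, 13 and 2. All had 0 with diluent, and most counts of TRIM63 and TRIM15 lay in prexasertib replicate 2. Against the floor, the totals over the prexasertib group (23, 28 and 22 counts) were at least 6.60-fold, 8.03-fold and 6.31-fold higher.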

How the data were processed

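Per the labels' protocols, RNA came from an RNeasy Mini kit, and the TruSeq RNA Library Prep Kit v2 gave libraries that do not mark strand. The values are whole-number counts for each gene symbol as deposited by the authors, not normalized. TopHat2 2.0.14, Bowtie2 2.2.6, featureCounts 1.4.6 and hg38 are named, per the submitters' processing notes. Annotation, strand setting and counting of mates were not given in the sources used here. All 15 columns matched a sample and were used.

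Groups came from the labels. Genes were filtered with filterByExpr, scaled by TMM and fitted with edgeR 4.0.16 (R 4.3.3, robust quasi-likelihood, 1 mean per group, 10 residual degrees of freedom), with Benjamini-Hochberg adjustment over 17243 genes. Alternatives were RLE factors, DESeq2 1.42.0, no filter, at least 1 CPM in 3 libraries, a replicate block, a fit to 1 line and leaving out each library. The members and lists were chosen with earlier results of these data known. A listed antiviral signalling gene enters the counts over its list, and its own values are not reported here. Values in every library were given for up to 6 called members each way with the largest change and at least 1 CPM, and for members that the text takes up by role. A group with 0 counts was set at a floor of 3 counts over its libraries. Intervals and floors cover counting error only.

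Coordinates and exon overlaps came from GENCODE v29 on GRCh38 (72 of 72 members matched), and promoters from RefSeq (56 of 72). Replicate numbers paired combination with prexasertib libraries (correlations of deviations 0.409, 0.370 and 0.384). The fit was tested on simulated data.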

Additional observations from a re-analysis of the deposited data

Results flagged for a closer look

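For 17 TRIM genes the prexasertib effect in U937 minus that in ML1 (log2) passed the test of the difference itself in edgeR, over 17243 genes. The difference was negative for TRIM22 (-3.79), TRIM5 (-2.38), TRIM69 (-2.08), TRIM25 (-1.90), TRIM58 (-1.70) and TRIM14 (-1.63). It was also negative for TRIM21 (-1.34), TRIM16L (-1.14), TRIM56 (-1.12), TRIM16 (-1.02), TRIM46 (-0.58) and TRIM38 (-0.55). It was positive for TRIM72 (2.72), TRIM2 (1.95), TRIM7 (1.60), TRIM59 (1.20) and TRIM65 (1.08). TRIM46 (adjusted p = 0.038) lost its call with no low-count filter (0.060) and without any 1 library of these groups other than U937 prexasertib replicates 1 and 3 (0.053 to 0.085). TRIM72 (adjusted p = 0.021) lost its call without U937 diluent replicate 1 (0.076) or 2 (0.058) or U937 prexasertib replicate 2 (0.053). TRIM7, TRIM38, TRIM58 and TRIM69 also lost the call of the difference in some alternatives, as given above. TRIM14 and TRIM58 were called lower in U937 and higher in ML1, and TRIM59 the other way round. The U937 calls of TRIM14, TRIM58 and TRIM59 and the ML1 call of TRIM58 ended in some alternatives, so these opposite directions are uncertain.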

How the results depend on the processing

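No called TRIM gene changed direction under any alternative. Counts of calls moved by over 1.5 times as follows. Under prexasertib in U937 the number higher was 22 with no low-count filter, against 14, and the number lower was 2 in a fit to U937 alone and 0 to 5 with 1 library left out, against 5. Combination against prexasertib gave 7 to 13 lower with 1 library left out, against 13. Over all genes that number was 1793 to 3057, against 2947. Combination against diluent gave 11 higher with the replicate block and 2 to 4 with 1 library left out, against 4. Over all genes the block gave 2218 higher in that comparison, against 1186. For combination against diluent the number lower was 0 with no low-count filter, 0 in a fit to U937 alone and 0 to 1 with 1 library left out, against 1. The difference between lines gave 3 to 5 higher with 1 library left out, against 5. The cause was not tested.

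With the replicate block, members higher and lower were 14 and 7 for prexasertib in U937 and 18 and 7 in ML1. They were 6 and 15 for combination against prexasertib and 11 and 1 for combination against diluent. They were 7 and 13 for the difference and 10 and 18 for the diluent lines. Over all 17243 genes the block gave 3936 and 3682 for prexasertib in U937 (3154 and 2206 without it) and 4940 and 4763 in ML1 (4370 and 4049). It gave 3239 and 3830 for combination against prexasertib (2048 and 2947) and 2218 and 2065 for combination against diluent (1186 and 709). The difference had 3015 and 2887 (2140 and 2124), and the diluent lines 5226 and 4825 (5510 and 5076). Outside the diluent lines, calls thus rose over all genes too. In ML1 under prexasertib the block ended the call of TRIM58 (0.053). Between the diluent lines it ended the lower calls of TRIM5 (-0.40, adjusted p = 0.071), TRIM21 (-0.33, 0.051), TRIM11 (0.18) and TRIM32 (0.15) and the higher call of TRIM61 (0.10), and called TRIM28 lower in U937 (-0.42, 0.012) and TRIM37 higher (0.58, 0.0014). Outside combination against prexasertib, whether same-numbered libraries belonged together was not settled. At least 1 correlation of deviations per pair of groups was under 0.1 (lowest 0.0342). Others reached 0.386 for combination against diluent and 0.317 for prexasertib against diluent in U937. The library deviating most alike had the same number for 5 of 6 libraries in combination against diluent. It did for 4 of 6 in prexasertib against diluent in U937 and for 6 of 6 in ML1 and between the diluent lines. Of 115 calls of single genes, DESeq2 kept 112 and RLE factors 115. Under the 1 CPM filter, the 109 calls still tested were kept. The alternative scalings moved the median of all genes by -0.028 to 0.014. Depth limits the 27 members under 1 CPM.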

Other observations

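Rows of other genes were read after the counts of the TRIM43 to TRIM64 subfamily were seen, and no test was run on them. DUX4 had 0, 16 and 4 counts with the combination, 45, 95 and 25 counts with prexasertib and 0, 1 and 0 counts with diluent in U937. In ML1, DUX4 had 380, 27 and 89 counts with prexasertib, against 0, 5 and 1 counts with diluent, while the subfamily had 4, 1 and 2 counts there with prexasertib. RFPL4A, another known target of DUX4, had 2, 57 and 12 counts with the combination, 129, 798 and 111 counts with prexasertib and 0 counts in all diluent libraries in U937. In ML1 it had 55, 44 and 28 counts with prexasertib, against 0, 1 and 0 counts with diluent. Other genes tied to DUX4 did not all follow one pattern between the lines. ZSCAN4 had 1, 0 and 0 counts with the combination, 11, 12 and 0 counts with prexasertib and 0 counts in all diluent libraries in U937, and 54, 10 and 48 counts with prexasertib in ML1, against 0 counts in all ML1 diluent libraries. PRAMEF1 had 0, 2 and 0 counts with the combination and 14, 41 and 3 counts with prexasertib in U937, and 2, 0 and 0 counts with prexasertib in ML1. PRAMEF2 had 0 counts in all combination libraries and 9, 64 and 13 counts with prexasertib in U937, and 2, 0 and 0 counts with prexasertib in ML1. Both had 0 counts in all diluent libraries. DUXA had 34, 21 and 24 counts with the combination, 53, 95 and 31 counts with prexasertib and 19, 17 and 14 counts with diluent in U937. In ML1, DUXA had 28, 29 and 26 counts with prexasertib, against 16, 30 and 14 counts with diluent.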
